A study of Mus musculus with 9 samples.

Results

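Jejunum of mice raised on feed G was compared with jejunum of mice raised on feed K. The comparison used 6 of the 9 arrays of the series, 3 for each of these feeds, assigned by the feed in the sample labels. These feeds were taken because their arrays had similar sensitivity. The feed B arrays of mice 7 and 8 detected fewer probes than any of these, at 36.7% and 33.7%. That of mouse 10 detected 43.6%, within the range of the 6 arrays used. Each array held the RNA of 1 male OF1 mouse, an outbred strain, taken at 7 weeks of age from generation 3 of a feeding trial in which the lines received feed B, K or G. No other agent or allele was given to any group. The sources used here do not say which letter stands for which diet composition, although the study's methods name a custom maize diet. They also describe the mice as purchased, where the labels describe breeding on the feeds over generations. Tissue came from a short segment around the middle of the small intestine, after a period without food according to the methods, and the time of day was not randomized according to the labels. Because OF1 mice are outbred, the mice of 1 feed also differ in genotype, and whether they were littermates is not given.

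RNA was measured on single-colour chemiluminescent arrays of 60-base probes. Values are log2 of the quantile-normalized signal, averaged over the probes of a gene, and a difference of 1 on this scale is a factor of 2. A gene was tested if at least 3 of the 6 arrays showed it at 3 times the noise or more, which left 9257 genes of 15674 gene names. Between 41.2% and 48.1% of probes were detected per array. The share was 47.1% ± 0.94 on feed G and 43.6% ± 3.46 on feed K (SD, n = 3 each). A two-sided exact permutation test gave p = 0.3, with a smallest possible p of 0.1. The feeds had been chosen for similar sensitivity and p could not fall under 0.1, so this test cannot decide whether the share differs. The serial numbers of the feed G arrays all sort after those of feed K, so the order of the arrays and the feed cannot be told apart. The number of arrays limits the precision, and p-values measure the spread between mice.

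Interferon-γ from lymphocytes acts in part through the transcription factor IRF1 to induce GTPases that attack intracellular pathogens, chemokines that attract T cells, the immunoproteasome, and MHC molecules. In the small intestine, villus epithelium carries MHC class II molecules in addition to the dendritic cells, B cells and macrophages of the lamina propria. Heat shock proteins are chaperones that fold or refold proteins, and their genes are induced together by the factor HSF1.

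After adjustment limma left 0 genes under 0.05, or 0% of the 9257 tested, and the lowest adjusted p was 0.36. At an unadjusted p under 0.05 there were 625 genes, 6.75% of those tested. An unmoderated linear model also passed 0 genes after adjustment. Of the 625, 295 were higher on feed G (3.19% of genes tested) and 330 on feed K (3.56%), so that 47.2% were higher on feed G. When arrays were instead scaled by their medians, the numbers were 281 and 138, and 67.1% were higher on feed G. Values on every array were at hand for 9221 genes. Among them the 3 mice of 1 feed lay wholly above the 3 of the other for 581 genes higher on feed G (6.3%) and for 694 higher on feed K (7.53%). The difference had a median of -0.01 over all genes tested, and its standard error had a median of 0.26. The counts below use the unadjusted threshold as a description of size relative to spread. They are to be read against these shares.

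One mouse stood apart in markers of the distal small intestine before any comparison of feeds. Fabp6, the ileal bile acid binding protein, which marks the distal small intestine, read 19.62 in mouse 11 of feed G. It read 8.23 and 9.13 in the other feed G mice and 9.09, 12.37 and 11.99 in the feed K mice. Slc10a2, the ileal bile acid transporter, was also highest in mouse 11, at 12.84 against 6.49 to 9.91 in the others. Of 8 tested genes of the distal small intestine list, mouse 11 was highest for 4 and lowest for 1. Of 5 tested genes of the proximal list, it was lowest for 2 and highest for 1. Fabp1, the liver-type fatty acid binding protein, read 16.57 against 18.16 to 19.31 in the others. Slc2a2, the basolateral glucose and fructose transporter, read 10.20 against 11.77 to 12.38. The label of mouse 11 is jejunum, and these ileal markers are well above those of the other mice. Enterocyte identity genes were detected equally in all mice, 18 of 19 on each array. Over tested genes with a value on every array, mouse 11 correlated with the other mice at a Pearson r of 0.912 to 0.944. Mouse 4 of feed K was as far from the others, at 0.912 to 0.929. Because of the ileal markers, values without mouse 11 are given for each main list. They are also given for each named gene past the threshold whose call was lost or whose difference moved by over 1.5 times. Without mouse 11, 256 genes were higher on feed G at the unadjusted threshold (2.77%) and 380 on feed K (4.11%), with 0 after adjustment.

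**Figure D1:**
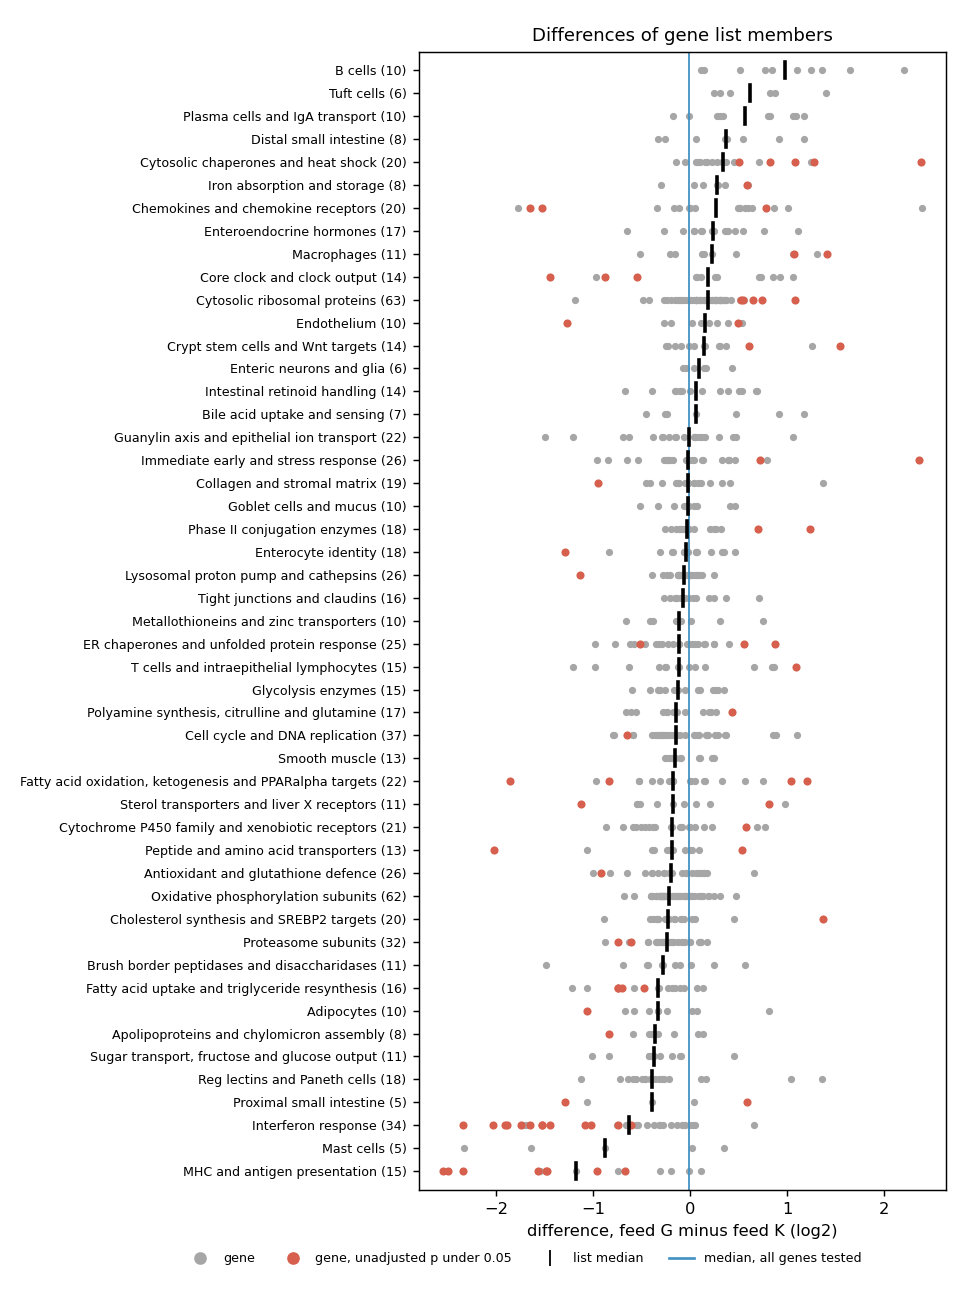
Differences between feeds (feed G minus feed K, log2; n = 3 mice each) for the tested members of each gene list with 5 or more tested members, 1 point per gene, red where the unadjusted limma p was under 0.05. Black bars are list medians and the blue line is the median of all genes tested (-0.01); the MHC median lies lowest (1.18 higher on feed K), and the cytosolic chaperone median is 0.34 (higher on feed G).

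MHC and antigen presentation genes were the list with the lowest median difference. Of 20 genes listed, 15 were tested. Their median was 1.18 higher on feed K, beside a median of -0.01 (feed G minus feed K) over all genes. On feed K, 8 members were higher at the unadjusted threshold and 0 on feed G, and 14 of 15 had the higher mean on feed K. The 3 mice of feed K lay wholly above those of feed G for 8 members, beside 7.53% of all genes with a value on every array. The lowest adjusted p in the list was 0.73, in limma. Without mouse 11 the median was 0.64 higher on feed K, and 5 members were past the unadjusted threshold. The count fell to 2 without mouse 1 of feed K and to 2 without mouse 3 of feed K.

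The class II genes gave the largest differences of the list. Cd74, the invariant chain that escorts class II molecules and keeps their groove closed, read 15.14, 14.47 and 12.40 in mice 4, 8 and 11 of feed G. It read 16.61, 16.90 and 16.14 in mice 1, 3 and 4 of feed K. All feed K mice were above all feed G mice, and mouse 11 was the lowest. The difference was 2.55 higher on feed K (SE 0.70), or 5.84-fold. Without mouse 11 it was 1.74 (SE 0.34).

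H2-Aa, the alpha chain of the class II molecule I-A, read 14.27, 13.08 and 11.34 on feed G against 15.09, 16.38 and 14.72 on feed K. The feeds did not overlap, and mouse 4 of feed G came nearest to the feed K mice. It was 2.50 higher on feed K (SE 0.81), and 1.72 without mouse 11. H2-Ab1, the partner beta chain, was 13.79, 12.38 and 10.43 on feed G and 14.41, 14.77 and 14.43 on feed K. Its difference was 2.34 (SE 0.80), with 1.45 remaining without mouse 11. H2-Eb1, the beta chain of I-E, was 1.49 higher on feed K (SE 0.49). H2-Ea, the alpha chain of I-E, is outside the list and was named for its size, with 11.68, 12.57 and 10.98 on feed G and 14.50, 14.71 and 12.88 on feed K. It was 2.29 higher on feed K (SE 0.61). H2-DMa, which edits the peptides of class II molecules, was 1.48 higher (SE 0.50), and 1.16 without mouse 11, no longer past the threshold. Across these class II genes mouse 11 was the lowest of the 6 mice, and mouse 8 lay below mouse 4 for all but H2-Ea. The transactivator of the class II genes, Ciita, was detected in 1 mouse of each feed and was not tested.

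The class I side of the list gave smaller differences. Tap1, a subunit of the transporter that carries peptides into the endoplasmic reticulum, read 10.74, 10.21 and 8.88 on feed G and 11.80, 11.27 and 11.47 on feed K. It was 1.57 higher on feed K (SE 0.48) and 1.04 without mouse 11. Tapbp, tapasin, which loads peptides onto class I molecules, was 0.67 higher (SE 0.27) with overlap, since mouse 8 of feed G at 11.82 exceeded mouse 4 of feed K at 11.72. H2-D1, a classical class I heavy chain, was 0.96 higher (SE 0.35). Without mouse 11 Tapbp (0.58) and H2-D1 (0.64) were no longer past the threshold. B2m, the light chain of all class I molecules, was 0.74 higher (SE 0.36), or 0.39 without mouse 11, and did not reach the threshold. Ctss, the cathepsin that trims the invariant chain, read nearly the same on both feeds (-0.01, SE 0.16).

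**Figure D2:**
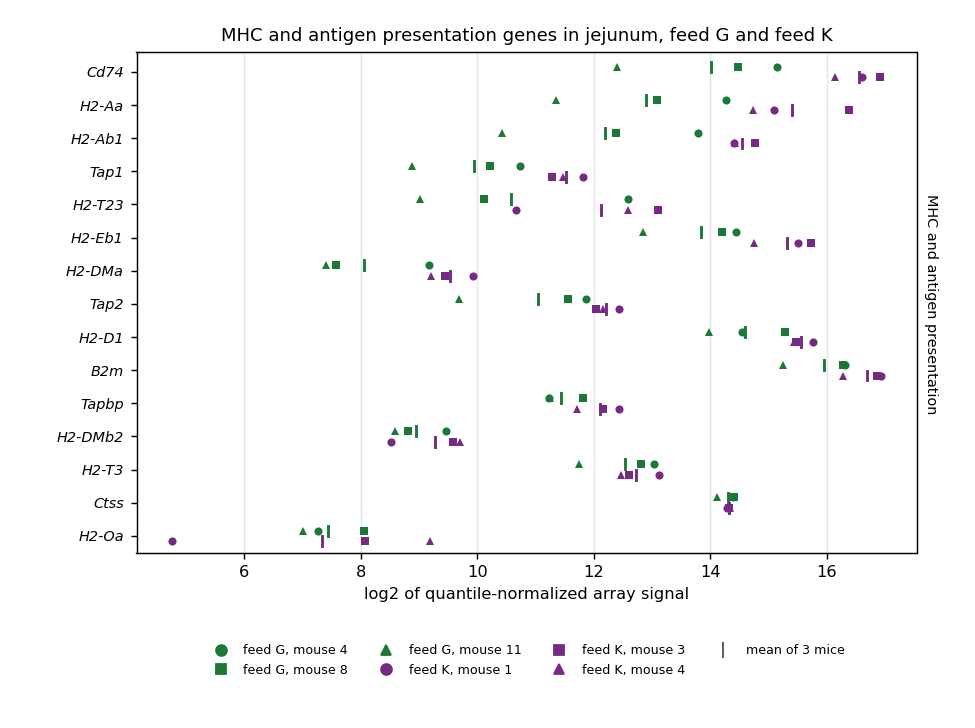
Log2 quantile-normalized signal of MHC and antigen presentation genes in each of the 6 mice (green feed G, purple feed K, symbols by mouse, bars the mean of 3 mice). For Cd74 the feed K mice lie between 16.14 and 16.90, all above the feed G mice, and mouse 11 of feed G (green triangle) is lowest at 12.40.

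Cells that carry class II molecules did not all read higher on feed K. Of 14 B cell genes found on the array, 10 or 11 were detected on each feed G array, and 5, 4 and 10 on the feed K arrays of mice 1, 3 and 4. The log2 of their summed signal was 12.53 to 13.37 on feed G and 11.42, 11.47 and 13.53 on feed K, and all 10 tested members had the higher mean on feed G, 0 of them past the threshold. Detection on 3 arrays was enough for testing, so members could enter through the feed G arrays alone. The filter thus favours this direction among the tested members. Macrophage genes had a summed level of 16.28 to 18.54 on feed G, the lowest in mouse 11, and of 17.51 to 18.10 on feed K. Of 11 tested macrophage genes 8 had the higher mean on feed G and 3 on feed K. At the threshold 2 were higher on feed G, beside 3.19% of all genes, and 0 on feed K. Cd68, a lysosomal protein of macrophages and 1 of these 2, was detected in all feed G mice and in 0 of the feed K mice. Cd68 thus passed the filter through the feed G arrays alone. It was an estimated 2.65-fold higher on feed G. Such an estimate takes, on each array of the other feed, the higher of the probe's own signal and the lowest detected signal. The mean of the higher feed is set against these. It rests on signal below detection and is no sure minimum. Fewer cells of a type and less RNA per cell cannot be told apart in whole tissue, and the part of these cells in the class II difference was not tested.

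Interferon response genes read higher on feed K as a list. Of 40 genes listed 34 were tested, with a median 0.63 higher on feed K. At the unadjusted threshold 13 were higher on feed K and 0 on feed G. The feed K mice lay wholly above the feed G mice for 15 members, and the reverse held for 1, beside 7.53% and 6.3% of all genes. The lowest adjusted p was 0.64 in limma. Without mouse 11 there were 12 past the threshold and the median was 0.56 higher on feed K. Without mouse 1 of feed K there were 7.

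The immunity-related GTPases, which attack the vacuoles of intracellular pathogens and are classic interferon-γ targets, made up much of this. Igtp read 11.73, 10.89 and 10.06 on feed G and 13.96, 12.58 and 13.16 on feed K. The feeds did not overlap, and mouse 11 was again lowest. It was 2.34 higher on feed K (SE 0.52), or 5.07-fold, and 1.93 without mouse 11. Irgm2 was 1.91 higher (SE 0.68), Iigp1 1.89 (SE 0.51), Ifi47 1.53 (SE 0.40), Tgtp1 1.45 (SE 0.47) and Irgm1 1.02 (SE 0.27), with no overlap between feeds for any of them. Gbp2, a guanylate-binding protein, was 1.09 higher (SE 0.41) with overlap. Without mouse 11 the difference of Irgm2 was 1.21, and Tgtp1 (1.18) and Gbp2 (0.84) were no longer past the threshold. Several of these genes have close relatives whose transcripts could bind the same probe. Zbp1, a sensor of Z-form nucleic acids, read 11.46, 11.17 and 9.22 on feed G and 13.09, 12.15 and 12.71 on feed K, a difference of 2.03 (SE 0.62), and of 1.33 without mouse 11.

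The chemokines and the proteasome subunits of the response were on the same side. Cxcl9, which attracts activated T cells, read 7.02, 8.49 and 7.36 on feed G and 9.32, 9.33 and 9.15 on feed K. It was 1.65 higher on feed K (SE 0.39), and 1.52 without mouse 11. Cxcl10, which shares its receptor, was 1.53 higher (SE 0.48), and here mouse 11 was the highest of its feed at 7.93. Psmb9, a catalytic subunit of the immunoproteasome, was 1.74 higher (SE 0.55), and 1.13 without mouse 11. Its partner Psmb8 was 1.72 higher (SE 0.71), without overlap, at an unadjusted limma p of 0.0503. Without mouse 11 it was 0.89 higher, at an unadjusted limma p of 0.0247. Psme2, a subunit of the proteasome activator that interferon-γ induces, was 0.74 higher (SE 0.26), and 0.50 without mouse 11, no longer past the threshold. The probe of Psme2 is listed in the file with Psme2b and cannot separate them.

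A pair of regulators varied little among the mice of 1 feed. Irf1, the transcription factor that relays the interferon-γ signal, read 13.02, 13.02 and 12.72 on feed G and 13.52, 13.57 and 13.90 on feed K, a difference of 0.74 (SE 0.19). Socs1, the feedback inhibitor of the same signal, read 8.85, 8.71 and 8.51 on feed G and 9.99, 9.59 and 9.92 on feed K. Its difference of 1.15 (SE 0.19) placed it among the 12 genes with the smallest p higher on feed K, with an adjusted limma p of 0.48. Mouse 11 was the lowest for both, but the difference of Socs1 was 1.06 and that of Irf1 0.64 without it. Ubd, a ubiquitin-like protein that cytokines induce, was outside the list and had the largest difference of the genes named here, with 11.26, 12.38 and 8.34 on feed G against 13.93, 14.75 and 13.08 on feed K. It was 3.25 higher on feed K (SE 1.05), and 2.10 without mouse 11.

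Other members of the list, several best known from the type I interferon response, were not past the threshold and ranged from near 0 to higher means on feed K. Isg15, the ubiquitin-like modifier, differed by -0.20 (feed G minus feed K, SE 0.20) and Mx1, an antiviral GTPase, by 0.05 (SE 0.25). Oas2, which makes the activator of RNase L, differed by -0.08 (SE 0.37) and Rsad2, viperin, by -0.05 (SE 0.35). For these 4 the mice of both feeds overlapped. Without mouse 11 the differences were -0.11 for Isg15, -0.08 for Mx1, 0.28 for Oas2 and -0.26 for Rsad2. Irf7, a transcription factor that amplifies the type I response, was 0.65 higher on feed K (SE 0.27), and Ifit1, an inhibitor of viral translation, 0.76 higher (SE 0.44). Oasl1, a relative of Oas2 without its enzyme activity, was 0.44 higher on feed K (SE 0.37), and 0.78 without mouse 11, then past the threshold. Ifi27l2b, of a family that interferon induces and outside the list, ran the other way, at 16.98, 17.15 and 16.99 on feed G against 14.16, 13.14 and 15.98 on feed K. It was 2.61 higher on feed G (SE 0.68), and the feed K mice were widely spread.

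**Figure D3:**
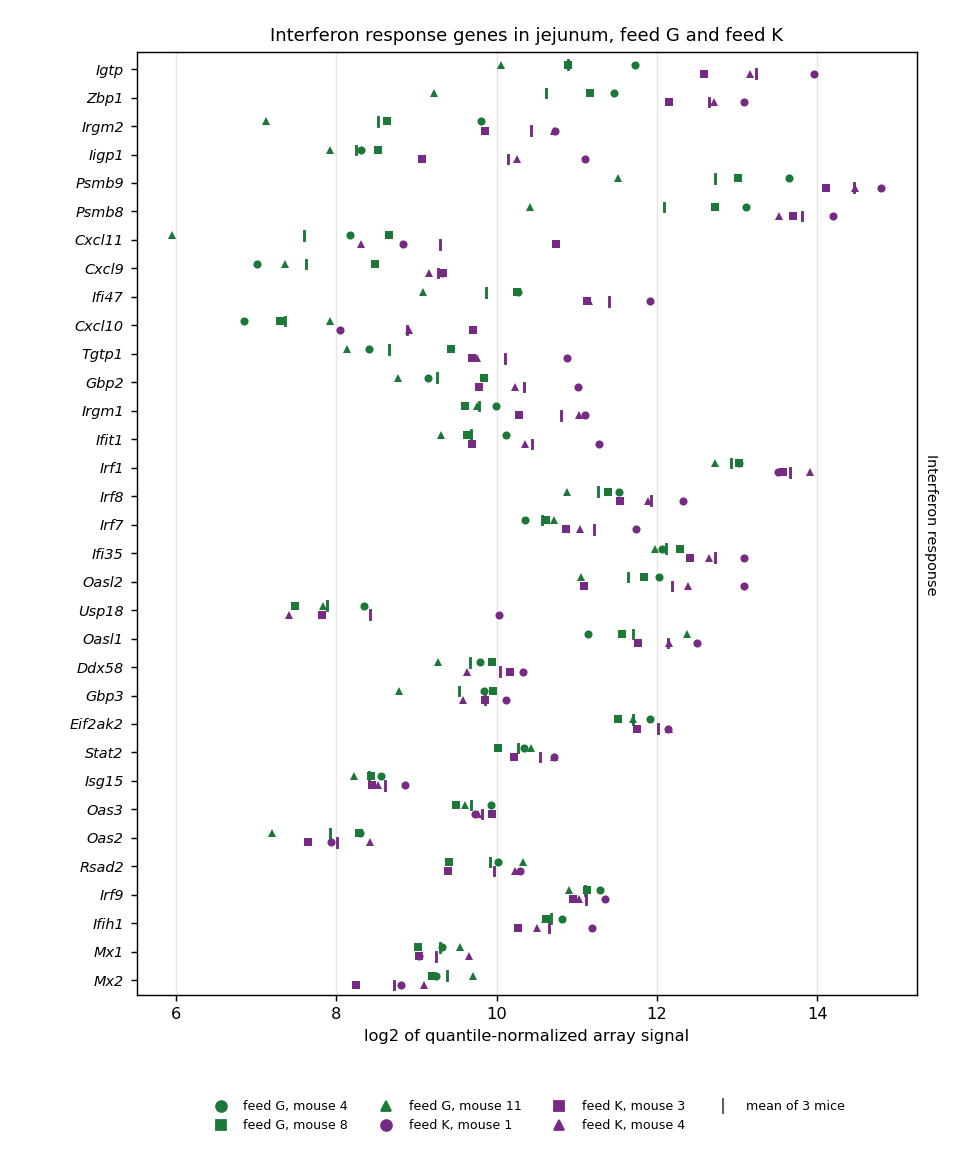
Log2 quantile-normalized signal of tested interferon response genes in each of the 6 mice, ordered by the difference between feeds (symbols by mouse, bars the mean of 3 mice). Igtp, Zbp1 and the other genes at the top separate the feeds, while Isg15 and Mx1 overlap.

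T cells and intraepithelial lymphocytes are the usual source of interferon-γ in this tissue. The log2 of the summed signal of their genes was 14.05, 14.48 and 12.34 on feed G and 13.87, 15.75 and 12.51 on feed K. Mouse 11 of feed G and mouse 4 of feed K were therefore both low. Of 15 tested members 6 had the higher mean on feed G and 9 on feed K, with a median of -0.12 (feed G minus feed K). Without mouse 11, 14 had the higher mean on feed G and 1 on feed K, and the median was 0.35. The limit of the filter given for B cell genes holds here too. Gzmb, a granzyme of cytotoxic lymphocytes, read 11.15, 11.35 and 7.80 on feed G and 11.92, 13.06 and 8.25 on feed K. Without mouse 11 its difference was 0.17 (feed G minus feed K, SE 1.45). In mouse 4 of feed K, with the lowest Gzmb of its feed, Igtp (13.16) lay between the other feed K mice. Its Cd74 (16.14) was the lowest of its feed. Cd4 was 1.10 higher on feed G (SE 0.35). The part of lymphocyte number in the interferon genes was not tested.

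The promoters of the interferon genes are shown because the members share short motifs in this region. Windows from 250 bases before to 50 bases after the start were taken from RefSeq (GRCm38.p6) and searched on both strands for TTCNNNGAA, the letters of the interferon-γ element GAS, and, for the element ISRE, GAAA and GAAA with any 2 bases between them. Either motif was in 11.3% of all 32851 windows, with TTCNNNGAA in 8.3% and the ISRE letters in 3.44%. Of the 13 members past the threshold 11 had a window, and 8 of these held a motif. Of the other 21 tested members 15 had a window, and 11 of these held one, so the motif did not separate the members past the threshold from the rest. Capitals mark the motif, and each stretch runs 5′ to 3′ on the strand of the gene. They lie at chr11:58199481-58199555 (+) for Igtp, chr11:58214872-58214952 (+) for Irgm2, chr11:48992284-48992364 (-) for Tgtp1 and chr11:53769894-53769962 (+) for Irf1.
Igtp: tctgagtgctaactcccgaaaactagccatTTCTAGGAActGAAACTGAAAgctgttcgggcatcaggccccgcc
Irgm2: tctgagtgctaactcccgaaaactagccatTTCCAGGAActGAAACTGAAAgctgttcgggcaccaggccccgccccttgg
Tgtp1: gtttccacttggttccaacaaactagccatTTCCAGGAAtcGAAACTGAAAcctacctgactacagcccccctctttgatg
Irf1: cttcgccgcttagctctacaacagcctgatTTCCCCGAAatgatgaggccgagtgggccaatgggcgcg
The 3 GTPase genes carry both motifs side by side, whereas Irf1 carries the GAS letters alone. A match is a description of letters in the window and not a measured binding site.

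The class II promoters are read for a different pair of letters, the X box and the Y box that the class II enhanceosome binds. H2-Eb1 is shown because it held both within 1 short stretch, at chr17:34305745-34305866 (+).
H2-Eb1: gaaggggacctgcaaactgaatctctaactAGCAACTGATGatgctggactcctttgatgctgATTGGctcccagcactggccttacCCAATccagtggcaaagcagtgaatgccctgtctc
The capitals mark AGNAAC and ATG with any 2 bases between them, used for the X box, and ATTGG on either strand, the core of the Y box. Of the 8 MHC members past the threshold, class I genes included, 6 had a window, of which 6 held ATTGG and 1 held the X box letters. Of the other 7 tested members 6 had a window, of which 4 held ATTGG and 0 held the X box letters. Over all windows the shares were 37.4% and 0.895%.

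Cytosolic chaperones had several members with higher values on feed G. Of 24 listed 20 were tested, with a median of 0.34 (feed G minus feed K), and 18 had the higher mean on feed G. At the unadjusted threshold 5 were higher on feed G and 0 on feed K. The feed G mice lay wholly above the feed K mice for 8, beside 6.3% of all genes. The lowest adjusted p in the list was 0.69 in limma. Without mouse 11 the median was 0.30, and 3 members were past the threshold. The count was also 3 without mouse 8 of feed G, 3 without mouse 1 of feed K and 2 without mouse 4 of feed K. It was 3 with median scaling and 2 with the authors' own normalized signal.

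Hsph1, a co-chaperone of HSP70 that exchanges its nucleotide, read 10.86, 10.89 and 12.88 on feed G and 8.80, 9.50 and 9.18 on feed K. The feeds lay apart and mouse 11 was the highest. It was 2.38 higher on feed G (SE 0.58), or 5.21-fold, and 1.71 without mouse 11 (SE 0.26). Dnajb1, an HSP40 that stimulates HSP70, read 10.32, 10.05 and 11.21 on feed G and 9.37, 9.33 and 9.64 on feed K, a difference of 1.08 (SE 0.33). Hspa4l, a relative of Hsph1, was 1.28 higher (SE 0.49), and Chordc1, an HSP90 co-chaperone, 0.83 (SE 0.34). Stip1, which joins HSP70 to HSP90, was 0.51 higher (SE 0.20). Without mouse 11 Hspa4l (0.87), Chordc1 (0.51) and Stip1 (0.38) were no longer past the threshold. In each of these 5 genes mouse 11 was the highest of the 6 mice. The HSP90 genes Hsp90aa1 (0.71, SE 0.32) and Hsp90ab1 (0.37, SE 0.18) and the HSP70 gene Hspa8 (1.25, SE 0.62) had the higher mean on feed G without reaching the threshold. The mitochondrial chaperone Hspe1 (0.08, SE 0.18) and the cytosolic Hspa4 (-0.05, SE 0.31) differed little. Without mouse 11 Hspa4 differed by -0.20 (SE 0.35).

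**Figure D4:**
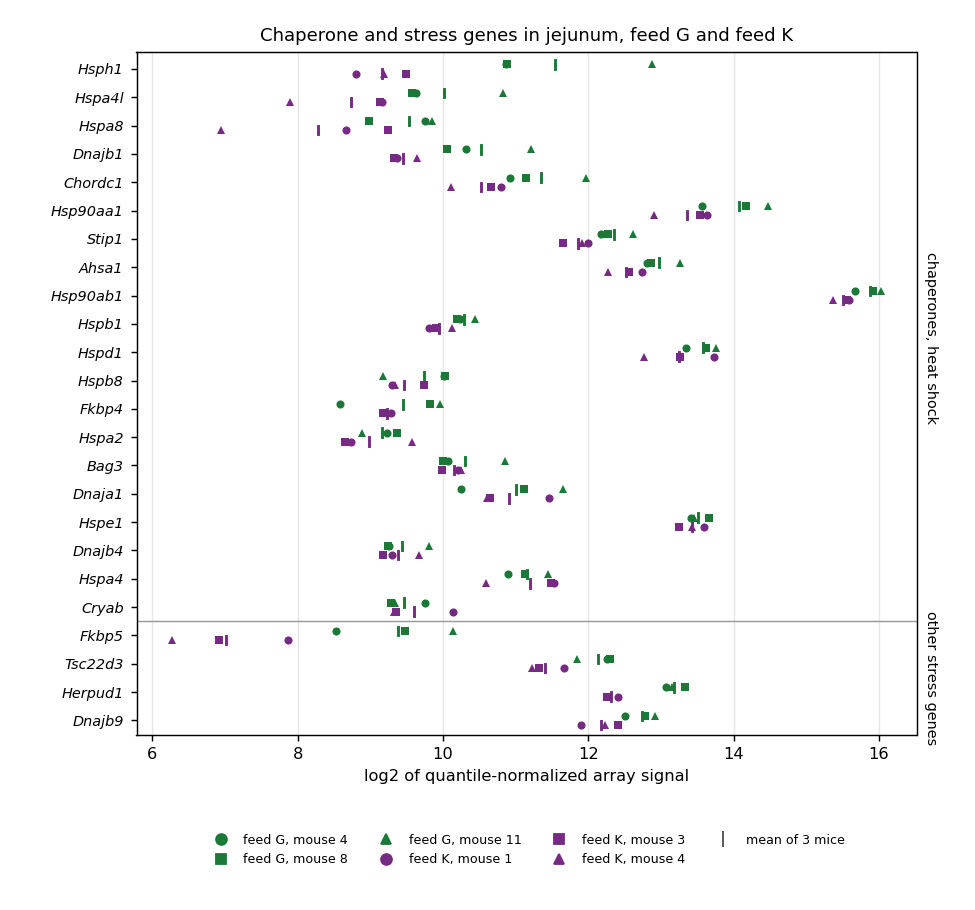
Log2 quantile-normalized signal of chaperone and stress genes in each of the 6 mice (symbols by mouse, bars the mean of 3 mice). Hsph1 lies between 10.86 and 12.88 on feed G and between 8.80 and 9.50 on feed K, and mouse 11 of feed G (green triangle) is highest.

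Glucocorticoid and endoplasmic reticulum stress genes held single members with large differences. Fkbp5, an HSP90 co-chaperone that glucocorticoids induce, read 8.53, 9.48 and 10.13 on feed G and 7.87, 6.92 and 6.27 on feed K, where it was detected in 0 mice. It was an estimated 5.15-fold higher on feed G. Tsc22d3, another glucocorticoid target, read 12.26, 12.30 and 11.84 on feed G and 11.67, 11.33 and 11.22 on feed K, a difference of 0.72 (SE 0.22), and 0.87 without mouse 11. Both are in a list of 26 immediate early and stress genes, which had 2 members higher on feed G, 0 on feed K and a median of -0.02, and without mouse 11 had 3 and 2. Herpud1, which helps degrade misfolded proteins of the endoplasmic reticulum, read 13.07, 13.33 and 13.15 on feed G and 12.41, 12.26 and 12.26 on feed K. Its difference was 0.88 (SE 0.16) and was 0.89 without mouse 11. Of 25 genes of the unfolded protein response, 2 were higher on feed G, Herpud1 and the chaperone Dnajb9 (0.55, SE 0.21). One was higher on feed K, the disulfide isomerase P4hb, by 0.52 (SE 0.19), and 15 of the 25 had the higher mean on feed K. Without mouse 11 Dnajb9 (0.46) and P4hb (0.46, higher on feed K) were no longer past the threshold. The main chaperone of this compartment, Hspa5, was 0.40 higher on feed G (SE 0.17) and did not reach the threshold.

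Cytosolic ribosomal protein genes differed by small amounts, mostly with the higher mean on feed G. Of 63 tested 5 were higher on feed G and 0 on feed K, a share of 7.94% beside 6.75% of all genes, and 49 had the higher mean on feed G and 14 on feed K. The count was 3 without mouse 4 of feed G and 3 without mouse 1 of feed K. The feed G mice lay wholly above for 20 of the 63 members and wholly below for 1. Over all genes with a value on every array the shares were 6.3% and 7.53%. The median was 0.18 (feed G minus feed K), and 0.15 without mouse 11. Rpl10 read 13.22, 13.30 and 13.40 on feed G and 12.80, 12.76 and 12.79 on feed K, a difference of 0.53 (SE 0.15). Oxidative phosphorylation subunits had 0 of 62 past the threshold in either direction, but 49 had the higher mean on feed K and 13 on feed G. Their median was 0.22 higher on feed K, and 0.13 without mouse 11, when 1 was higher on feed K at the threshold. The feed K mice lay wholly above for 8 of them, beside 7.53% of all genes. Of 32 proteasome subunits 2 were higher on feed K and 0 on feed G, a share of 6.25% beside 6.75% of all genes. Their median was 0.24 higher on feed K, and 26 had the higher mean on feed K and 6 on feed G. The 2 past the threshold were Psme2 and Psmb6, the constitutive subunit that Psmb9 replaces. Psmb6 was 0.61 higher on feed K (SE 0.25). Without mouse 11, 0 of the 32 were past the threshold.

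Fat absorption genes had a minority of members with higher values on feed K. Enterocytes take up fatty acids, rebuild triglycerides and export them in chylomicrons. Of 16 tested genes of uptake and resynthesis, 4 were higher on feed K and 0 on feed G, with a median 0.33 higher on feed K, and 14 had the higher mean on feed K. Without mouse 11 the count was 4 and the median 0.34. With median scaling 1 member passed, and with the authors' own normalized signal 0 did. The count was 2 without mouse 8 of feed G, 1 without mouse 1 of feed K and 2 without mouse 4 of feed K.

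Slc27a4, a fatty acid transport protein of enterocytes, read 14.30, 13.97 and 14.94 on feed G and 15.17, 15.03 and 15.13 on feed K. Mouse 11 was here the nearest to feed K. The difference was 0.71 (SE 0.27), and 0.97 without mouse 11 (SE 0.19). Dgat1, which makes the last bond of triglyceride, was 0.48 higher on feed K (SE 0.18), and 0.43 without mouse 11, no longer past the threshold. Gpat3, an acyltransferase of glycerol 3-phosphate, was 0.74 higher (SE 0.22), and Lipe, hormone-sensitive lipase, 0.75 higher (SE 0.22). The fatty acid translocase Cd36 was 1.22 higher on feed K (SE 0.62), with mouse 11 far below at 9.73, and 0.58 without it. Of 8 apolipoprotein and chylomicron genes 1 was higher on feed K and 0 on feed G. This was Apoc2, the activator of lipoprotein lipase, with 16.07, 16.14 and 15.42 on feed G and 16.34, 16.79 and 16.99 on feed K, a difference of 0.83 (SE 0.28), and of 0.60 without mouse 11, when 0 of the 8 were past the threshold. Apoa4 (0.43, SE 0.20), Mttp (0.39, SE 0.20) and Sar1b (0.33, SE 0.20), which assemble or carry chylomicrons, were above on all feed K mice without reaching the threshold, and Apoa4 (0.27) and Mttp (0.25) differed less without mouse 11. Sugar transport and fructose genes had 0 of 11 members past the threshold in either direction, with a median 0.37 higher on feed K that became -0.09 without mouse 11, as feed K minus feed G.

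Lipid enzymes outside absorption differed in both directions. Thrsp, a regulator of lipogenesis that carbohydrate and thyroid hormone induce, read 10.12, 10.40 and 10.03 on feed G and 11.24, 11.23 and 11.26 on feed K. The feed K mice were almost equal, and the difference was 1.06 (SE 0.17). Acaa1b, a peroxisomal thiolase, was 1.86 higher on feed K (SE 0.71), and 1.11 without mouse 11, no longer past the threshold. Acadm, a mitochondrial acyl-CoA dehydrogenase, was 1.21 higher on feed G (SE 0.46) with overlap, and 1.15 without mouse 11, no longer past the threshold. Of 22 genes of fatty acid oxidation, 2 were higher on each feed. Without mouse 11, 1 was higher on feed G and 4 on feed K. Of 20 cholesterol synthesis genes 16 had the higher mean on feed K and 4 on feed G. Their median was 0.23 higher on feed K. At the unadjusted threshold 0 were higher on feed K and 1 on feed G, mevalonate kinase (Mvk), by 1.37 (SE 0.36). Without mouse 11 it was again 1 on feed G, and 3 were higher on feed K. Then 19 had the higher mean on feed K and 1 on feed G, and the median was 0.52 higher on feed K.

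Clock genes had 3 of 14 tested members higher on feed K and 0 on feed G, with a median of 0.19 (feed G minus feed K). Arntl, the positive factor of the loop, read 7.77, 8.79 and 6.65 on feed G and 9.62, 8.76 and 9.15 on feed K, a difference of 1.44 (SE 0.56) with overlap. Without mouse 11 it was 0.90 and no longer past the threshold. Nr1d1, its repressor, read 10.90, 10.83 and 11.07 on feed G and 11.53, 12.30 and 11.62 on feed K, a difference of 0.88 (SE 0.25). Nfil3, an output repressor, was 0.54 higher on feed K (SE 0.17). Per2, of the negative limb, was 1.06 higher on feed G (SE 0.47), or 0.67 without mouse 11, and did not reach the threshold. Without mouse 11 the list had 2 members higher on feed K and 1 on feed G. The latter was Hlf, a clock output factor, at 1.31 higher (SE 0.43), against 0.92 (SE 0.47) with mouse 11. Sampling time was not randomized, so that feed and time of day cannot be told apart.

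**Figure D5:**
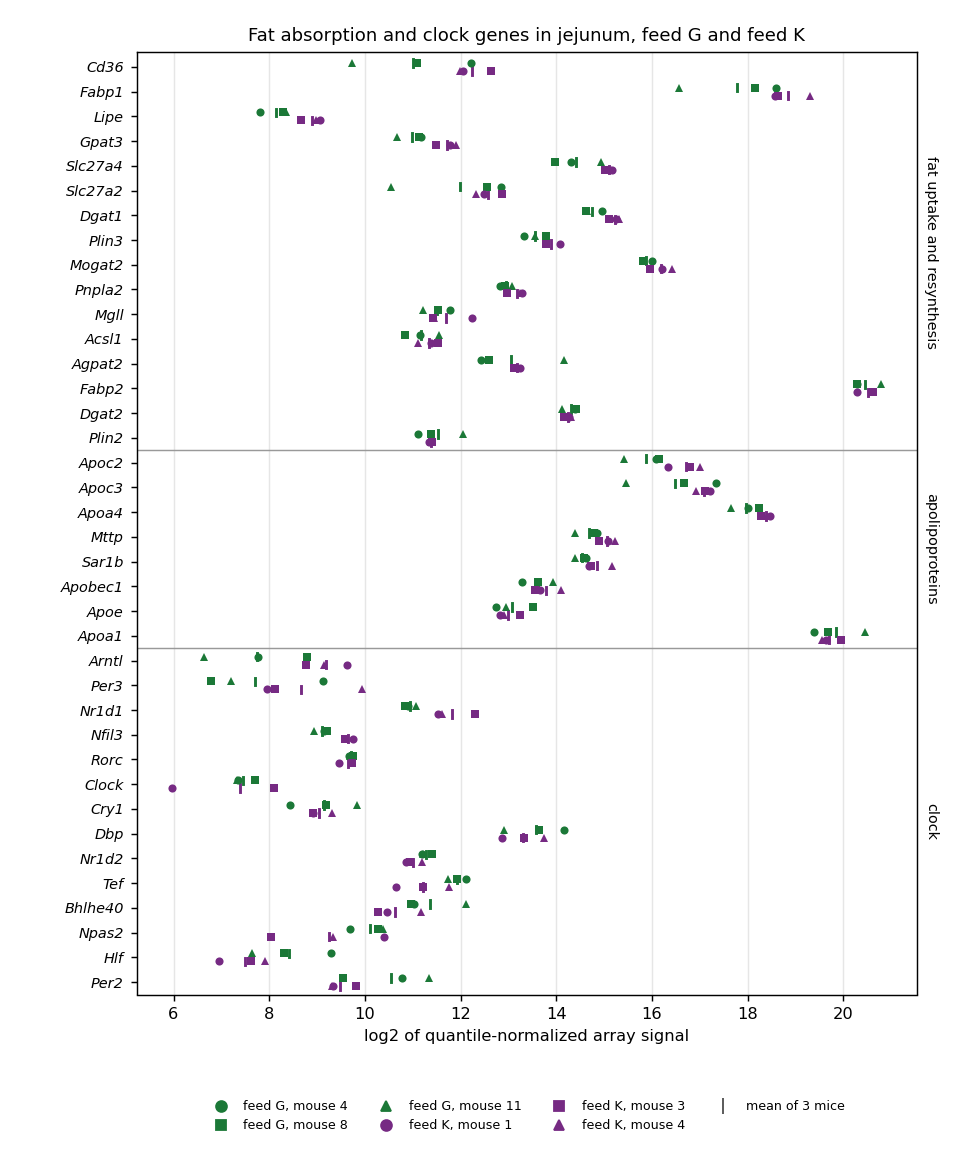
Log2 quantile-normalized signal of fat absorption, apolipoprotein and clock genes in each of the 6 mice (symbols by mouse, bars the mean of 3 mice). Dgat1, Gpat3 and Nr1d1 separate the feeds, Cd36 and Fabp1 are lowest in mouse 11 of feed G (green triangle), and Arntl overlaps.

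Some of the largest or most regular differences lay outside these groups. Cyp39a1, an oxysterol hydroxylase of bile acid synthesis, read 7.59, 7.89 and 8.11 on feed G and was below detection in all feed K mice. It was an estimated 3.36-fold higher on feed G, with the smallest unadjusted limma p of all genes, 7.86e-05, and an adjusted p of 0.36. Cyp39a1 passed the filter through the feed G arrays alone, so this p sets detected values against undetected signal. Gp2, a glycoprotein of M cells and pancreatic acini, was detected in all feed G mice and 0 of the feed K mice, and was an estimated 3.01-fold higher on feed G. Vsig1, a cell adhesion molecule best known from stomach epithelium, read 10.43, 10.51 and 10.67 on feed G and 8.00, 8.88 and 7.18 on feed K, a difference of 2.52 (SE 0.43). Sult1a1, a sulfotransferase of phenols, was 1.23 higher on feed G (SE 0.25), and Mylip, which targets the LDL receptor for degradation, 0.81 higher (SE 0.18).

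On the feed K side, Gata4, the transcription factor that sets jejunal against ileal identity, read 9.50, 8.73 and 9.50 on feed G and 10.64, 10.61 and 10.36 on feed K. Mouse 11, with its ileal markers, was no lower than mouse 4 of its feed. The difference was 1.29 (SE 0.26), and 1.42 without mouse 11. Arhgap26, a GTPase activating protein, read 8.01, 8.18 and 8.15 on feed G and 9.40, 9.48 and 9.38 on feed K, a difference of 1.31 (SE 0.15). Elmo2, which activates Rac with DOCK proteins, was 1.45 higher on feed K (SE 0.19). Slc36a1, a proton-coupled amino acid transporter, was 2.02 higher (SE 0.70), with mouse 11 lowest at 7.57, and 1.23 without it. Eln, elastin, was 0.95 higher on feed K (SE 0.19).

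In all, 64 genes were detected in every feed G mouse and in 0 of the feed K mice, of which 34 had an estimate of 2-fold or more. The reverse held for 12 genes, 7 of them with such an estimate. Feed G arrays detected the larger share of probes on average, at 47.1% against 43.6%, and the part of array sensitivity in these numbers was not tested.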

How the data were processed

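Total RNA of each mouse was labelled as cDNA and hybridised to 1 array (Applied Biosystems). The labels give Trizol and RNeasy for extraction, the methods Qiazol and miRNeasy. The deposited files give, per spot, the signal intensity, which the authors corrected for background and spatial effects within the array, a signal-to-noise score and a quality flag. RMA is named in the submitters' processing notes with no role. The deposited series table equals the files' own normalized signal; its scale is linear and uncentred, and what it was divided by is not given in the sources used here. Column medians were 1.06 to 1.10 on feed G and 1.09 to 1.16 on feed K.

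Spots flagged above 5000 were left out, intensity was quantile-normalized over the 6 arrays, log2-transformed and averaged by gene symbol. Genes at 3 times the noise or more on 3 or more arrays were fitted with limma 3.58.1 in R 4.3.3 (two-sided, Benjamini-Hochberg), on feed alone. The steps were tested on simulated data. Tables were made with Python 3.11.15, pandas 2.3.3 and matplotlib 3.10.9.

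The members and all 51 gene lists were chosen with earlier results of these data known. Of the listed genes, 999 were on the array, 837 by symbol and 162 through synonyms or accessions of the RefSeq table (GRCm38.p6). Genes were named if among the 12 smallest p-values or 8 largest non-overlapping differences per direction, the 5 largest estimates against undetected signal, a list member under an unadjusted p of 0.05, or a well known member of a described list. Alternatives were another scaling, the series table, all 9 arrays, the brightest probe, failed or dim spots, a floor, other filters, limma's trend and array weights, an unmoderated model, and each mouse left out. Some members of the lists are counted but not reported here by name.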

Additional observations from a re-analysis of the deposited data

How the results depend on the processing

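No gene passed the adjusted threshold under any of the 18 alternatives (lowest adjusted limma p 0.0526, with spots of signal-to-noise below 1 left out). The 625 genes at an unadjusted p under 0.05 became 343 with the series table, and 438 to 926 with each mouse left out in turn. Those higher on feed G (295) became 193 with the series table and 202 to 524 with a mouse left out, and those higher on feed K (330) became 138 with median scaling, 150 with the series table and 161 to 402. Median scaling shifted the median difference of all genes to 0.12. List counts moved as follows. MHC, 8, became 1 in the unmoderated model and 2 to 8 with a mouse left out. Interferon, 13, became 7 in the unmoderated model and 7 to 17 with a mouse left out. Chaperones, 5, became 3 with median scaling, 2 with the series table, 3 with no filter, 8 with limma's trend, 2 with array weights and 2 to 7 with a mouse left out. Fat uptake, 4, became 1 with median scaling, 0 with the series table, 1 with all 9 arrays, 2 with no filter and 1 to 5 with a mouse left out. Ribosomal proteins, 5, became 2 with the series table, 2 with the brightest probe, 3 with no filter, 9 with limma's trend, 13 in the unmoderated model and 3 to 7 with a mouse left out. With spots of signal-to-noise below 1 left out, the difference turned for Arf1 (1.05), Tpmt (-0.051) and Rpl28 (-2.65), and the other 1962 of 1965 recomputed differences of named genes kept their direction. The cause was not tested. Median differences of the lists stayed within their spread in 858 of 918 recomputed values. No paired analysis was possible because the feed G mice (4, 8 and 11) and the feed K mice (1, 3 and 4) share 1 number only. Genes below detection on all arrays of a feed have only an estimate from undetected signal there.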

Other observations

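Feed B mice, on a scale of all 9 arrays, gave a mean between feeds G and K for 7 of the 8 MHC genes past the unadjusted threshold and below both for 1. For the 13 interferon genes the numbers were 9 between and 4 below both, and all 5 chaperone genes lay between. The genes were chosen for a gap between feeds G and K, so a further mean would tend to fall between them by selection. The feed B arrays of mice 7 and 8 also detected fewer probes, at 36.7% and 33.7%, beside 43.6% for mouse 10. These positions are therefore given as values only.

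Mast cell protease Mcpt2 read 5.78, 7.35 and 7.90 on feed G and 8.37, 11.63 and 8.01 on feed K, with mouse 3 of feed K far above the others. All 6 tested tuft cell genes had the higher mean on feed G, with 0 past the unadjusted threshold and a median difference of 0.62. Here too members could pass the filter through the feed G arrays alone. Arf1 read 16.61 in mouse 3 of feed K and 10.93 to 12.10 in the other mice.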
